A study of Mus musculus with 6 samples.

Results

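The genes of the constitutive proteasome were followed in B16-BL6 cells, a mouse melanoma line. Members were chosen by symbol: Psma1 to Psma7, Psmb1 to Psmb7, Psmc1 to Psmc6, Psmd1 to Psmd14, Adrm1, Pomp, Psme3, Psme4, Psmf1 and Psmg1 to Psmg4. These symbols took 43 of the 22535 gene rows in the table, 1 row each. RNA with a poly(A) tail was sequenced from 3 libraries of cells carrying a control guide RNA (sgControl) and 3 of cells carrying a guide against Ndufs4 (sgNDUFS4), a subunit of mitochondrial complex I. All 6 libraries came from cells grown in DMEM with serum, pyruvate and antibiotics, and no further treatment is named. The labels do not say whether a genotype is 1 clone or a pool, nor whether replicates are separate cultures. A p-value here thus sets the difference between the groups against the scatter of these libraries, which may be technical scatter. The guide cannot be told apart from other differences between the lines.

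The proteasome is the protease that degrades proteins tagged with ubiquitin in the cytosol and nucleus. Its barrel, the 20S core, stacks outer rings of alpha subunits, which gate the entrance, on inner rings of beta subunits, 3 of which carry the active sites. A 19S cap on the barrel binds ubiquitin chains, removes them, and unfolds the substrate with a ring of ATPases. Dedicated chaperones build the core and the cap, other caps can replace the 19S cap, and the peptides released feed MHC class I presentation. Interferon can exchange the 3 catalytic beta subunits for the immunoproteasome forms, which are counted apart here.

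The libraries held 20090607 to 25947374 reads counted in genes, and every member had at least 262 reads in every library. Ndufs4 was at 54.3, 55.0 and 52.4 CPM in sgControl libraries against 15.0, 15.98 and 16.8 in sgNDUFS4 libraries, a fall of 1.73 on the log2 scale (limma adjusted p = 5.9e-16). The 7 melanoma markers checked (Mlana, Pmel, Tyr, Tyrp1, Dct, Sox10 and Mitf) were all tested, 2 higher and 5 lower in sgNDUFS4. Of all genes tested, 31.8% were higher and 20.3% lower. The summed level of the 7 markers was 15409 to 15927 CPM in sgControl and 14508 to 15533 CPM in sgNDUFS4. Of 17 markers of leukocytes, fibroblasts, endothelium and epithelium, 7 were at 0 in every library, among them Cd3e, Dcn, Pecam1, Cdh5, Kdr and Krt18. Another 8 of the 17 were expressed enough to be tested, with 0 higher, 3 lower and 5 not called in sgNDUFS4. The shares over all genes are those given above. The summed level of the 17 was 52.7 to 61.8 CPM in sgControl and 46.5 to 57.7 CPM in sgNDUFS4. CPM scales the reads counted in genes to the same total in every library, so a value is a share of its library.

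Proteasome transcripts changed by small amounts, and in both directions. With limma on log2(CPM + 0.5), at an adjusted p under 0.05 over all genes tested, 9 of the 43 members were higher in sgNDUFS4, 17 were lower and 17 did not pass. That is 60.5% called, against 52.0% of the 11063 genes tested, or 57.0% of the 7369 with a mean CPM within the range of the members, with 20.9% of members higher against 31.8% of all genes and 39.5% lower against 20.3%. Of the genes in that range, 34.2% were higher and 22.8% were lower. The median log2 fold change was -0.042 over the members, 0.061 over all genes tested and 0.050 over the genes in that range. Scaling by TMM, which sets the bulk of genes to no change, gave 4 members higher and 22 lower, or 60.5% called against 50.7% of all genes, of which 24.9% were higher and 25.8% lower, and moved the members' median to -0.10. The edgeR test on reads recovered from the CPM also gave 4 higher and 22 lower, against 50.5% of all genes called, 24.6% higher and 25.9% lower. The values of the groups did not overlap in 29 members, or 67.4%, against 57.2% of all genes. Fold changes ran from -0.34 for Psmd1 to 0.35 for Psmg4 on the log2 scale, or from 0.792-fold to 1.28-fold. None of the 43 changed by more than 0.5 on that scale, a size that 9.92% of the genes in the same CPM range exceeded. The spread between replicate libraries was small beside the largest of these changes, with a median coefficient of variation of 3.31% in sgControl and 2.65% in sgNDUFS4. It was not small beside every change. The highest coefficients were 11.1% and 9.55%, and Psmf1, at 51.3 ± 5.68 CPM in sgControl (SD, n = 3), changed by -7.27%. In bulk RNA, fewer cells of a type and less RNA per cell cannot be told apart.

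**Figure D1:**
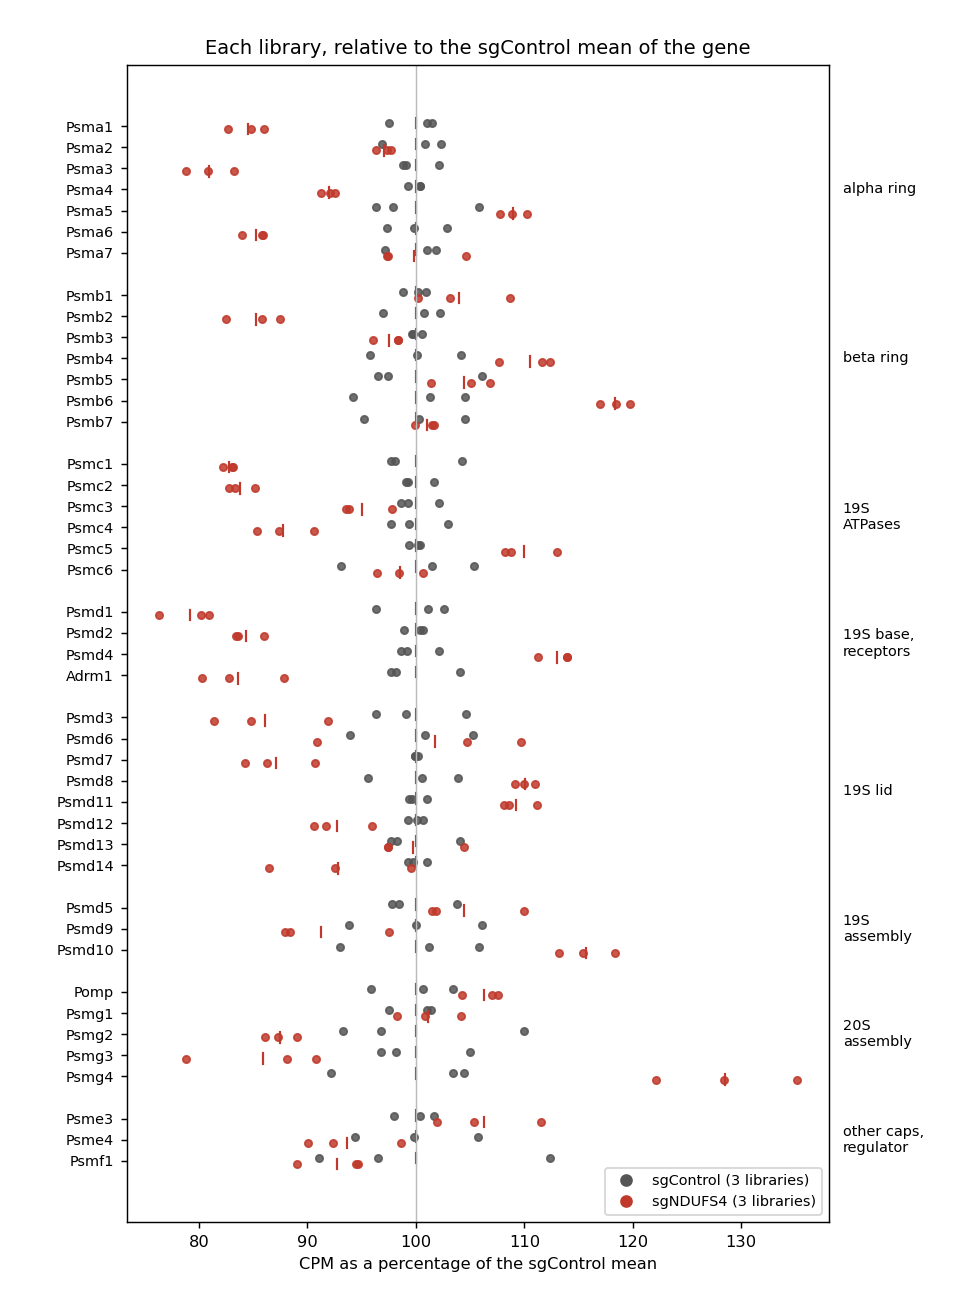
Level of each of the 43 genes in each library, as a percentage of that gene's sgControl mean (horizontal axis), grouped by role. Points are libraries (grey sgControl, red sgNDUFS4) and short bars are group means of 3 libraries. The red points of Psma1, Psma3, Psma6, Psmc1, Psmc2, Psmd1 and Psmd2 lie left of all grey points of the same gene, and those of Psmb6 and Psmg4 lie right of them.

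The alpha ring was mostly lower. Of its 7 genes 4 fell, 1 rose and 2 did not pass. The median of the 7 log2 fold changes was -0.12. Psma3 (α7; ENSMUSG00000060073.9, chromosome 12, 70974621 to 70996347) was at 219, 226 and 219 CPM in sgControl libraries against 174, 184 and 179 in sgNDUFS4 libraries. The groups did not overlap, and Psma3 fell by 0.30 on the log2 scale (SE 0.0374, limma adjusted p = 1.8e-07). Psma1 (α6) was at 246, 256 and 255 CPM in sgControl libraries against 217, 208 and 214 in sgNDUFS4 libraries, again without overlap, and fell by 0.24 (SE 0.0357, limma adjusted p = 2.9e-06). Psma6 (α1) was at 249, 263 and 255 CPM in sgControl libraries against 219.9, 215 and 219.6 in sgNDUFS4 libraries and fell by 0.23 (SE 0.0356, limma adjusted p = 6.5e-06). Psma4 (α3), whose tail takes part in closing the gate, was at 119, 120.2 and 120.1 CPM in sgControl libraries against 111, 109 and 110.3 in sgNDUFS4 libraries. Its groups were far apart for their spread, and it fell by 0.12 (limma adjusted p = 0.020), with the call lost without sgNDUFS4 replicate 2 (adjusted p = 0.062).

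Psma5 (α5) was the alpha gene that rose, at 165, 178 and 162 CPM in sgControl libraries against 181, 183 and 186 in sgNDUFS4 libraries. Its log2 fold change was 0.12 (SE 0.0408, limma adjusted p = 0.013), 0.065 with TMM scaling (adjusted p = 0.20), and 0.11 and 0.098 without sgControl replicates 1 and 3, where it did not pass. Psma7 (α4) and Psma2 (α2) had groups that overlapped. The 95% confidence interval of the log2 fold change was -0.079 to 0.072 for Psma7 and -0.12 to 0.038 for Psma2, and Psma2 was called lower with TMM scaling, at -0.10 (adjusted p = 0.036).

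In the beta ring 2 genes rose, 1 fell and 4 did not pass. The median of the 7 log2 fold changes was 0.056, but the balance turned with the scaling: TMM gave 1 higher and 2 lower with a median of -0.0031, and centring on neighbouring genes gave 1 higher and 4 lower with a median of -0.12. Psmb6 (β1; ENSMUSG00000018286.6, chromosome 11, 70525367 to 70527858), the constitutive subunit with caspase-like activity, was at 262, 270.0 and 243 CPM in sgControl libraries against 306, 309 and 302 in sgNDUFS4 libraries. Every sgNDUFS4 library was above every sgControl library, and Psmb6 rose by 0.24 (SE 0.0372, limma adjusted p = 4.9e-06). This was the member called higher in all 17 alternative analyses, as the other 8 higher calls were each lost or turned in at least 1 of them. The other catalytic genes, Psmb5 (β5, chymotrypsin-like, the main target of bortezomib) and Psmb7 (β2, trypsin-like), did not pass. Psmb5 was at 238, 262 and 241 CPM in sgControl libraries against 264, 259.6 and 250.4 in sgNDUFS4 libraries, groups that overlap, with an interval of -0.016 to 0.14 on the log2 scale. It passed as higher without sgControl replicate 2 (0.11, adjusted p = 0.029). Psmb7 was at 357, 391 and 375 CPM in sgControl libraries against 381, 374 and 380.0 in sgNDUFS4 libraries, with an interval of -0.055 to 0.086.

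Among the beta subunits without an active site, Psmb2 (β4) fell and Psmb4 (β7) rose. Psmb2 was at 135, 130.2 and 137 CPM in sgControl libraries against 117.4, 111 and 115 in sgNDUFS4 libraries, a fall of 0.23 (SE 0.0434, limma adjusted p = 8.4e-05). Psmb4 was at 292, 304 and 279.5 CPM in sgControl libraries against 328, 314 and 326 in sgNDUFS4 libraries, a rise of 0.15 (SE 0.0357, limma adjusted p = 0.0014) that TMM scaling brought to 0.086 (adjusted p = 0.051). Neither gene's groups overlapped. Psmb3 (β3) and Psmb1 (β6) did not pass, at log2 fold changes of -0.036 and 0.056, and Psmb3 was called lower with TMM scaling, at -0.095 (adjusted p = 0.039).

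The ATPase ring of the 19S cap unfolds substrates and threads them into the core. Of its 6 genes 4 fell, 1 rose and 1 did not pass. Psmc1 (Rpt2; ENSMUSG00000021178.9, chromosome 12, 100110154 to 100123405), which helps to open the gate, was at 651, 695 and 654 CPM in sgControl libraries against 554, 548 and 554 in sgNDUFS4 libraries. The sgNDUFS4 values lay close together and below all sgControl values, a fall of 0.27 (SE 0.0302, limma adjusted p = 3.6e-08). Psmc2 (Rpt1) was at 313, 312 and 320.5 CPM in sgControl libraries against 261, 269 and 263 in sgNDUFS4 libraries and fell by 0.26 (SE 0.0332, limma adjusted p = 4.4e-07). Psmc4 (Rpt3) was at 333, 322 and 316 CPM in sgControl libraries against 283, 294 and 276 in sgNDUFS4 libraries and fell by 0.19 (SE 0.0347, limma adjusted p = 6.3e-05). Psmc3 (Rpt5) went from 464 ± 8.75 to 441 ± 11.04 CPM (SD, n = 3 each), a fall of 0.074 close to the threshold (limma adjusted p = 0.049). That call was lost without any 1 of sgControl replicates 1, 2 and 3 and sgNDUFS4 replicates 2 and 3, with log2 fold changes of -0.079, -0.084, -0.058, -0.064 and -0.062, and with quantile normalization, where it was -0.018. Psmc5 (Rpt6) was at 481, 485 and 486 CPM in sgControl libraries against 547, 524 and 526 in sgNDUFS4 libraries. On the CPM scale it thus rose while 4 of its 5 ring partners fell. The rise was 0.14 (SE 0.0297, limma adjusted p = 4.0e-04) and 0.078 with TMM scaling (adjusted p = 0.040). After centring on neighbouring genes, described below, Psmc5 was at -0.023 and did not pass. Psmc6 (Rpt4) had groups that overlapped and an interval of -0.11 to 0.066.

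All 4 genes of the base scaffolds and ubiquitin receptors passed, 3 lower and 1 higher. Psmd1 (Rpn2; ENSMUSG00000026229.17, chromosome 1, 86064387 to 86139151), the scaffold that holds the receptor Adrm1, was at 379.7, 374 and 356 CPM in sgControl libraries against 299, 297 and 282 in sgNDUFS4 libraries. It had the largest fall of the 43, 0.34 (SE 0.0349, limma adjusted p = 1.1e-08). Psmd2 (Rpn1; ENSMUSG00000006998.16, chromosome 16, 20651652 to 20663414), the scaffold that docks shuttle factors and the deubiquitinase Usp14, was at 1098, 1095 and 1079 CPM in sgControl libraries against 938, 909.8 and 912 in sgNDUFS4 libraries, the highest CPM of any member. It fell by 0.25 (SE 0.0261, limma adjusted p = 1.7e-08). Adrm1 (Rpn13), a ubiquitin receptor that also binds the deubiquitinase Uchl5, was at 235, 249.99 and 236 CPM in sgControl libraries against 211, 199 and 193 in sgNDUFS4 libraries. None of its sgNDUFS4 values reached the sgControl values, and the fall was 0.26 (SE 0.0396, limma adjusted p = 5.6e-06). The other receptor, Psmd4 (Rpn10), was at 289.7, 279.7 and 281 CPM in sgControl libraries against 315, 323 and 323 in sgNDUFS4 libraries and rose by 0.18 (SE 0.0330, limma adjusted p = 7.4e-05), so that the ubiquitin receptors of the cap went in opposite directions on the CPM scale.

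The lid, which holds the deubiquitinase that strips ubiquitin chains, was mixed. Of 8 genes 3 fell, 2 rose and 3 did not pass. Psmd7 (Rpn8), the partner of that deubiquitinase, was at 338, 338 and 339 CPM in sgControl libraries against 307, 292 and 285 in sgNDUFS4 libraries and fell by 0.20 (SE 0.0341, limma adjusted p = 2.3e-05). Psmd3 (Rpn3) was at 343, 325 and 316 CPM in sgControl libraries against 278, 301 and 267 in sgNDUFS4 libraries and fell by 0.22 (SE 0.0405, limma adjusted p = 6.9e-05). In neither gene did the groups overlap, although sgNDUFS4 replicate 2 of Psmd3 stood above the other sgNDUFS4 libraries. Psmd12 (Rpn5) went from 214 ± 1.52 to 199 ± 6.14 CPM (SD, n = 3 each), a fall of 0.11 (limma adjusted p = 0.016) that was lost without sgNDUFS4 replicate 2 (-0.092, adjusted p = 0.081) or sgNDUFS4 replicate 3 (-0.10, adjusted p = 0.051). Psmd8 (Rpn12) and Psmd11 (Rpn6) rose. Psmd8 was at 243, 256 and 264 CPM in sgControl libraries against 278, 279.8 and 282 in sgNDUFS4 libraries, and Psmd11 at 226, 229 and 226 CPM in sgControl libraries against 252, 247 and 245 in sgNDUFS4 libraries. Their log2 fold changes were 0.14 and 0.13 (limma adjusted p = 0.0022 and 0.0032), and neither passed with TMM scaling, at 0.080 and 0.069. Psmd14 (Rpn11), the deubiquitinase itself, was at 106, 104 and 104 CPM in sgControl libraries against 96.9, 104 and 90.5 in sgNDUFS4 libraries. The groups overlapped through sgNDUFS4 replicate 2, and its log2 fold change was -0.11 (limma adjusted p = 0.071), -0.16 without that library (adjusted p = 0.018) and -0.17 with TMM scaling (adjusted p = 0.0079). Psmd6 (Rpn7) and Psmd13 (Rpn9) had intervals of -0.099 to 0.14 and -0.088 to 0.081.

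Of the 5 assembly genes of the core 1 rose, 2 fell and 2 did not pass. Psmg1 to Psmg4 encode the chaperones PAC1 to PAC4, which build the alpha ring, and Pomp escorts the beta subunits. Psmg4 (PAC4; ENSMUSG00000071451.10, chromosome 13, 34162964 to 34178173) was at 13.04, 14.6 and 14.8 CPM in sgControl libraries against 18.2, 17.3 and 19.1 in sgNDUFS4 libraries. It had the largest rise of the 43, 0.35 (SE 0.101, limma adjusted p = 0.0051). After centring on neighbouring genes, described below, Psmg4 was at 0.0089 and did not pass. Its partner Psmg3 (PAC3) was at 21.9, 23.4 and 21.6 CPM in sgControl libraries against 20.3, 19.7 and 17.6 in sgNDUFS4 libraries, a fall of 0.22 near the threshold (limma adjusted p = 0.0498). Leaving out sgControl replicate 1, 2 or 3, or sgNDUFS4 replicate 2 or 3, ended that call, with log2 fold changes of -0.23, -0.18, -0.24, -0.23 and -0.16. Psmg2 (PAC2) went from 37.4 ± 3.29 to 32.7 ± 0.559 CPM (SD, n = 3 each), a fall of 0.19 (limma adjusted p = 0.036). It was -0.12 without sgControl replicate 3 (adjusted p = 0.21), and -0.19, -0.20 and -0.18 without sgNDUFS4 replicates 1, 2 and 3, where it did not pass either. Psmg1 (PAC1) had an interval of -0.085 to 0.12. Pomp was at 154, 166 and 161 CPM in sgControl libraries against 172, 167 and 171 in sgNDUFS4 libraries, without overlap but at an adjusted p of 0.068 in limma, and passed without sgControl replicate 2 (0.11, adjusted p = 0.038).

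Of the chaperones of the 19S base, Psmd10 (gankyrin) rose, and Psmd5 and Psmd9 did not pass. Psmd10 was at 38.4, 43.7 and 41.7 CPM in sgControl libraries against 48.8, 46.7 and 47.6 in sgNDUFS4 libraries. The groups did not overlap, and the rise was 0.21 (SE 0.0652, limma adjusted p = 0.0091), which fell short without sgControl replicate 1 (0.16, adjusted p = 0.061) and with TMM scaling (0.15, adjusted p = 0.057). The log2 fold changes of Psmd5 and Psmd9 were 0.062 and -0.13, the latter called lower with TMM scaling (-0.19, adjusted p = 0.020).

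None of the other caps and regulators passed. Psme3 encodes PA28γ, a cap of nuclear proteasomes, and was at 129.8, 125 and 128 CPM in sgControl libraries against 134, 142 and 130.2 in sgNDUFS4 libraries. Its values did not overlap between groups but lay close, with a difference of 0.087 on the log2 scale (limma adjusted p = 0.099). Psme4 encodes the cap PA200 and was at 197, 186 and 208 CPM in sgControl libraries against 177, 182 and 194 in sgNDUFS4 libraries. Its log2 fold change was -0.093 (limma adjusted p = 0.075), and it passed as lower with TMM scaling (-0.15), without sgControl replicate 2 (-0.13), without sgNDUFS4 replicate 3 (-0.13) and with the replicate number as a block (adjusted p = 0.035). Psmf1, which encodes the core-binding regulator PI31, had an interval of -0.25 to 0.040.

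Summed by role, the CPM of the cap was lower by a larger share than that of the core. The 18 subunits of the 19S cap together were at 6168, 6206 and 6161 CPM in sgControl libraries against 5746, 5706 and 5587 in sgNDUFS4 libraries, without overlap, and their mean changed by -8.07%. The 14 subunits of the core were at 3107, 3231 and 3125 CPM in sgControl libraries against 3133, 3110.3 and 3092 in sgNDUFS4 libraries, with overlap and a change of -1.36%. Divided by the TMM factors, a scaling of the sums added after the data were seen, the core was at 3159, 3311 and 3189.8 CPM in sgControl libraries against 3081, 3059 and 3006 in sgNDUFS4 libraries, without overlap and with a change of -5.32%, and the cap changed by -11.8%. Within the core the rings parted: the alpha ring summed to 1446, 1491 and 1469 CPM in sgControl libraries against 1343, 1359.8 and 1346 in sgNDUFS4 libraries and the beta ring to 1661, 1740.2 and 1656 CPM in sgControl libraries against 1789, 1751 and 1746 in sgNDUFS4 libraries. On CPM the alpha sum changed by -8.12% and the beta sum by 4.53%, and in neither did the groups overlap. With the TMM factors the alpha sum changed by -11.8%, again without overlap, while the beta sum overlapped between groups, at 1721 ± 54.2 and 1726 ± 31.3 CPM (SD, n = 3 each), a change of 0.337%. The ratio of alpha to beta CPM, which no scaling of whole libraries can change, was 0.871, 0.857 and 0.887 in sgControl and 0.751, 0.777 and 0.771 in sgNDUFS4. The ratio of cap to core CPM was 1.99, 1.92 and 1.97 in sgControl and 1.83, 1.83 and 1.81 in sgNDUFS4. Both ratios were lower in each sgNDUFS4 library than in any sgControl library. Such sums weigh each gene by its CPM, and Psmd2 alone gave 1091 ± 10.2 to 919.8 ± 15.8 CPM (SD, n = 3 each). These sums and ratios were formed from the members, carry no test and were not centred by region. After such centring, described below, 13 of 18 cap and 10 of 14 core genes were lower, against 21.9% of all genes. Their median log2 fold changes were -0.21 and -0.14, from -0.11 and -0.020 on CPM. The alpha and beta medians were -0.21 and -0.12, from -0.12 and 0.056. Both gaps were thus narrower after centring.

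**Figure D2:**
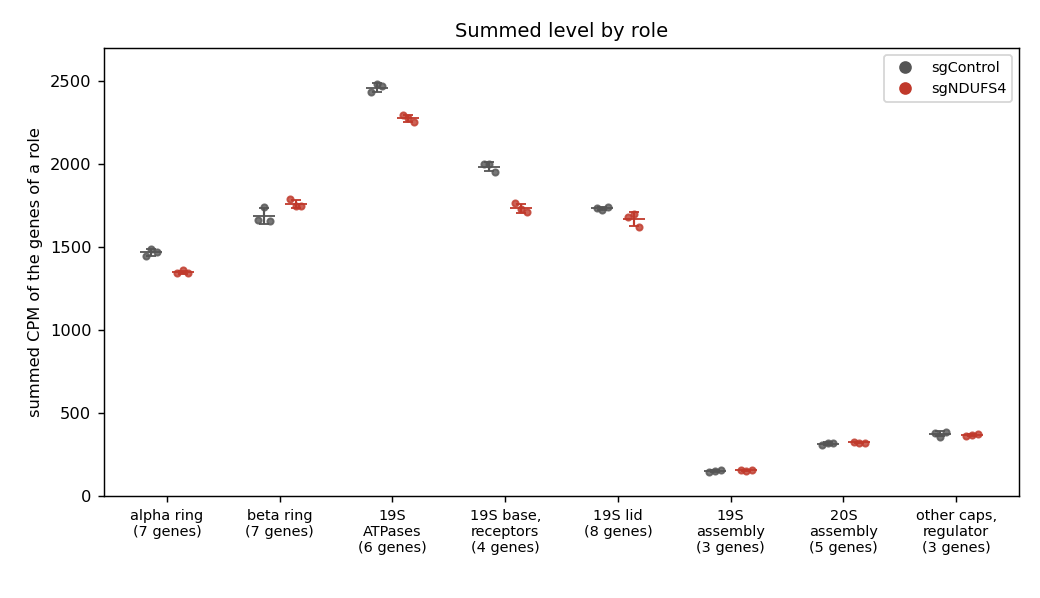
Summed CPM (vertical axis, from 0) of the genes of each role, with the number of genes under each label. Points are the 3 libraries of a group, horizontal marks are means and bars are SD. The ATPase and base sums are lower in all sgNDUFS4 libraries, at 2256 to 2298 CPM against 2432 to 2481 CPM and at 1710 to 1764 CPM against 1953 to 2002 CPM, and the beta ring sum is higher on this CPM scale, though not after TMM scaling, where its groups overlap.

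For each member, the median log2 fold change of its 50 nearest tested genes on the chromosome was taken as the level of its neighbourhood. The neighbourhoods of the 9 members called higher lay between 0.11 and 0.34, with a median of 0.21. Those of the 17 called lower lay between -0.15 and 0.22, with a median of 0.053. A neighbourhood above 0 was found for 12 of these 17, all 9 called higher and 15 of the 17 not called, or 36 of the 43 members. The median over all genes tested was itself above 0, at 0.061. What sets the level of a neighbourhood was not tested. Psmb4, Psmd4 and Psma5 lie on chromosome 3 (starts at 94884093, 95032694 and 108256926), with neighbourhoods at 0.26, 0.26 and 0.32. Members that lie close together, such as Psmb4 and Psmd4, share neighbours. The counts of neighbourhoods above 0 are thus not counts of separate regions. Psmg4 lies on chromosome 13 (start at 34162964) in a neighbourhood at 0.34, and Psma2 on the same chromosome (start at 14613240) in one at 0.12. Psmd10 lies on chromosome X in a neighbourhood at 0.21. Each member was then centred, in each library, on the median deviation of those 50 neighbours, and limma was run again on the 10881 genes that could be so treated. After centring 1 member was higher and 26 were lower, or 62.8% called against 43.5% of all genes, of which 21.6% were higher and 21.9% lower. The members' median was -0.14 against 0.0074 for all genes. The 1 higher member was Psmb6, at 0.16 (limma adjusted p = 0.0014). Psma5, Psmb4 and Psmd4, called higher on CPM, were called lower after centring, at -0.17, -0.13 and -0.099 (limma adjusted p = 0.0030, 0.010 and 0.031). Psmc5, Psmd8, Psmd11, Psmd10 and Psmg4 were at -0.023, 0.016, -0.021, -0.052 and 0.0089 and did not pass. Psmb1, Psmc6 and Psme3, which had not passed, were called lower, at -0.17, -0.21 and -0.15, as were Psma2, Psmb3, Psmd14 and Psme4. By role, 6 of 7 alpha genes, 4 of 7 beta genes, 5 of 6 ATPases, 4 of 4 base genes and 4 of 8 lid genes were lower after centring. Psmg3, called lower on CPM, was at -0.21 and did not pass.

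**Figure D3:**
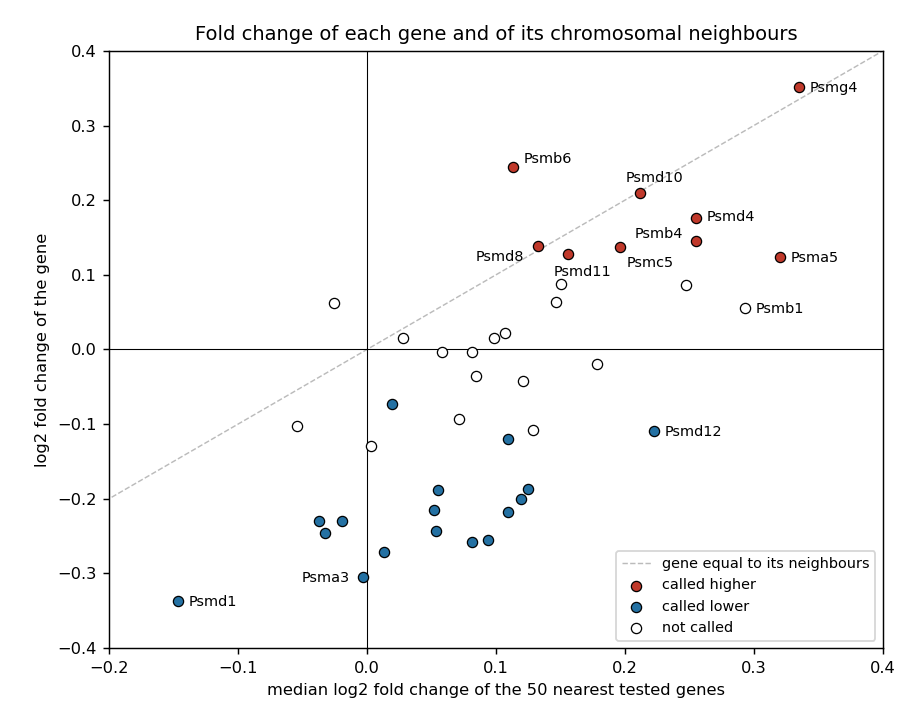
Log2 fold change of each of the 43 genes (vertical axis) against the median log2 fold change of its 50 nearest tested genes (horizontal axis). Red points are genes called higher, blue points genes called lower and open points genes not called. The dashed line marks equality: 6 of the 9 red points lie below it, Psmb6 lies furthest above it among them, and all 17 blue points lie below it.

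Of the 17 lower calls, 12 held in all 17 alternative analyses, which changed the pseudocount, filter, scaling, variance model or test, blocked on the replicate number, left out a library or centred by region. They were Psma1, Psma3, Psma6, Psmb2, Psmc1, Psmc2, Psmc4, Psmd1, Psmd2, Psmd3, Psmd7 and Adrm1. These comprise 3 genes of the alpha ring, 1 of the beta ring, 3 ATPases, 3 base genes and 2 lid genes. Without the mean-variance trend of limma, the calls of Psma5, Psmb4, Psmc3, Psmd8, Psmd12 and Psmg2 were lost, and without a filter on low values those of Psmc3, Psmg2 and Psmg3. Quantile normalization ended the calls of Psmc3 and Psmd10 and made Psmd9 and Psmd14 lower calls, and a pseudocount of 1 ended the call of Psmg3. After regional centring the 12 stable genes lay between -0.34 for Adrm1 and -0.12 for Psmb2 on the log2 scale.

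**Figure D4:**
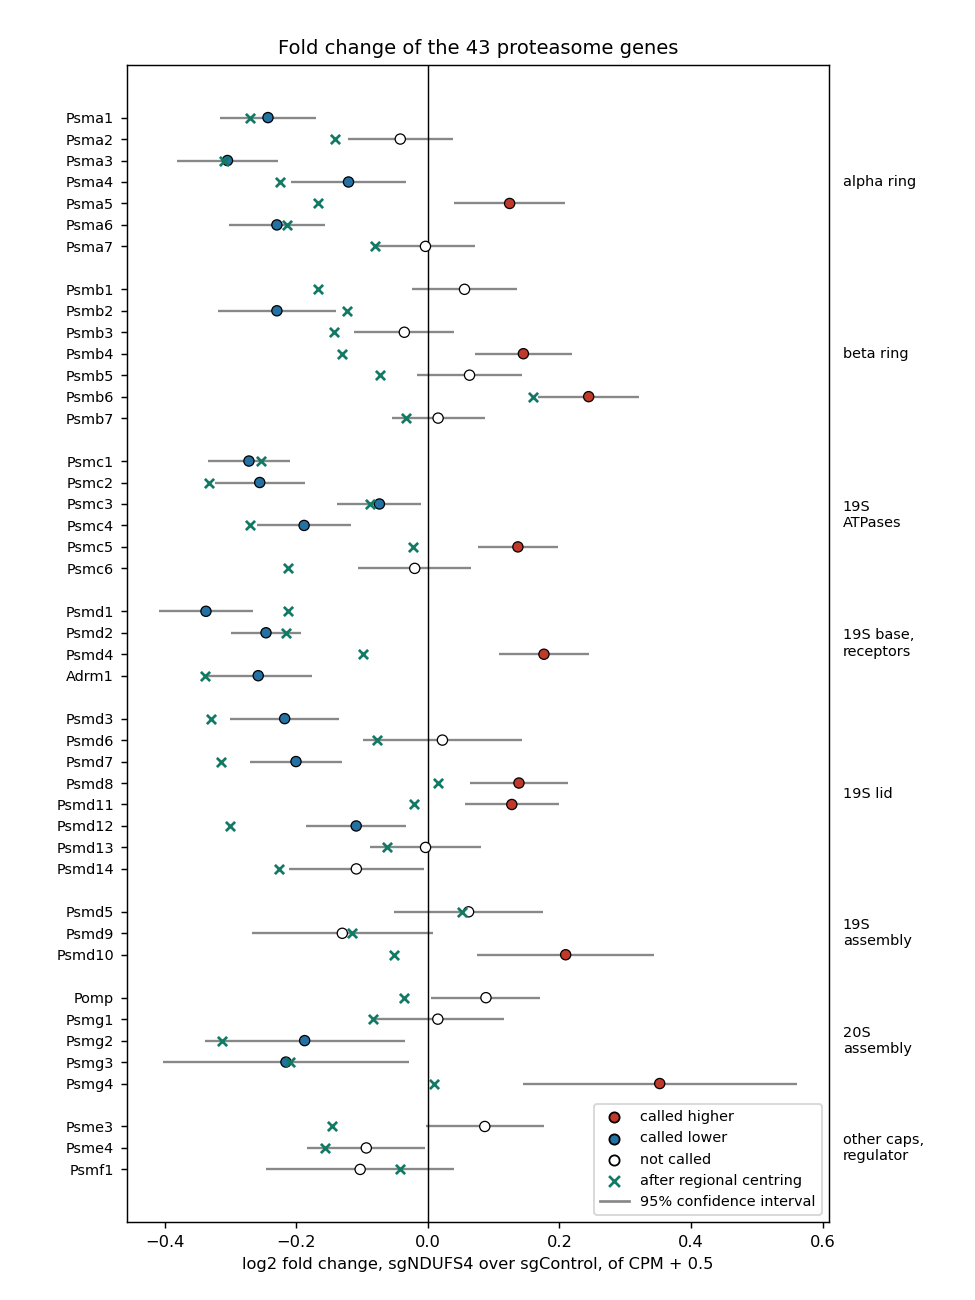
Log2 fold change of CPM + 0.5, sgNDUFS4 over sgControl, of the 43 genes by role, with 95% confidence intervals from limma (grey lines, n = 3 libraries a group). Filled points passed an adjusted p under 0.05 (red higher, blue lower), and crosses give the value after regional centring. After centring, Psmb6 is the 1 cross called higher, at 0.16.

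Some members share sequence with other genes, so that their reads may be lost or split. The principal transcripts of 13 members matched another GENCODE gene at 95% identity or more over at least 200 bases, with 21 such genes in all, 14 of them annotated as pseudogenes. For Psmd2 the pseudogene Gm5422 matched 92.1% of the transcript, for Adrm1 the gene Gm9774 matched 88.5%, and for Psmc1 the pseudogene AC110212.1 matched 82.1%. Gm9774 had a row of its own, which reached 8.12 CPM at most. Psma3, Psma4, Psma5, Psmb3, Psmb5 and Psmd11 also had such matches, and the genes that matched Psmb7, Psmd1, Psmd13 and Psmg3 overlap them on the chromosome. Exons of 10 members overlap another gene, among them Psmd9, where 25.5% of the exon bases overlap the transcript Gm26745 on the other strand, and Psmb7, where 11.8% overlap Nek6. The libraries did not keep the strand, so reads in such overlaps cannot be assigned to a strand.

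Per kilobase of the annotated principal transcript, the 32 subunits of core and cap ranged 7.04-fold in sgControl, although the rings hold each subunit in equal number. Levels are CPM per kilobase, mean ± SD over 3 libraries, and a shorter transcript in use would raise them. Psmc1 was highest, at 419 ± 15.4, followed by Psmd2 at 368 ± 3.44 and Psmc5 at 368 ± 1.93, and Psmd2 and Psmc5 differed by less than their SD. Psma2, Psmd6 and Psmd14 were lowest, at 59.5 ± 1.69, 66.4 ± 3.80 and 67.9 ± 0.602, and the last pair differed by less than the SD of Psmd6. The catalytic genes Psmb6, Psmb7 and Psmb5 were at 324 ± 16.99, 323 ± 14.9 and 275 ± 14.6, and the first pair differed by less than their SD. Assembly genes ranged from 14.4 ± 0.479 for Psmd5 to 101 ± 3.87 for Pomp.

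Some of the inducible counterparts moved more. Of 5 immunoproteasome and PA28 genes 4 rose and 0 fell, where 31.8% of all genes were higher and 20.3% lower. The median of the 5 was 0.68 on the log2 scale. Of the 4, 3 were also higher after regional centring, where 21.6% of all genes were higher. Psmb8, which replaces Psmb5, was at 8.96, 7.15 and 8.44 CPM in sgControl libraries against 21.1, 20.3 and 19.9 in sgNDUFS4 libraries. Psmb9, which replaces Psmb6, was at 0.747, 1.015 and 0.853 CPM in sgControl libraries against 3.25, 3.51 and 2.93 in sgNDUFS4 libraries. Psmb9, which is among the 4 that rose and the 3 still higher once centred, had only 15 reads in its lowest library. It passed the filter of a mean of 1 CPM only through the sgNDUFS4 libraries. Its values are thus not separate support for either count, on CPM or centred, nor for the median of the 5. The CPM ratio of Psmb5 to Psmb8 was 26.6, 36.7 and 28.5 in sgControl and 12.5, 12.8 and 12.6 in sgNDUFS4. Psmb10, which replaces Psmb7, went from 40.3 ± 1.51 to 43.7 ± 1.63 CPM (SD, n = 3 each) and did not pass (limma adjusted p = 0.14). The thymus and testis forms Psmb11 and Psma8 were at 0 reads in every library, which allows at most 0.116 to 0.149 CPM (3 reads, counting error only).

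Genes that feed the proteasome moved in both directions. Of 15 tested proteasome-bound and shuttle factors 7 rose and 3 fell on CPM, with a median of 0.099, where 31.8% of all genes were higher and 20.3% lower. TMM scaling gave 5 higher and 4 lower, where 24.9% of all genes were higher and 25.8% lower. Regional centring gave 3 higher and 5 lower, where 21.6% of all genes were higher and 21.9% lower. Sem1 (Rpn15), the smallest lid subunit, rose from 192 ± 7.11 to 232 ± 8.70 CPM (SD, n = 3 each), though it did not pass once centred by region (0.025). Usp14, a deubiquitinase bound to Psmd2, rose from 107 ± 4.34 to 143 ± 0.314 CPM (SD, n = 3 each). The shuttle factor Ubqln2 rose from 7.86 ± 1.32 to 19.98 ± 0.953 CPM (SD, n = 3 each). AI314180, the Ecm29 homolog that bridges core and cap, was at -0.0057 on the log2 scale and did not pass. Uba1, which lies on chromosome X and encodes the main enzyme that activates ubiquitin, fell from 1206 ± 13.04 to 651 ± 2.15 CPM (SD, n = 3 each), a log2 fold change of -0.89 and, after regional centring, of -0.15. The related enzyme Uba6 did not pass. Of 6 p97 cofactors 1 rose and 1 fell, again beside 31.8% of all genes higher and 20.3% lower. Faf2 rose by 0.50 and Nsfl1c fell by 0.14, and neither passed after regional centring. Nploc4, at -0.030, did not pass on CPM, and after regional centring it was lower, at -0.26 (limma adjusted p = 1.3e-05).

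The transcription factor NRF1, encoded by Nfe2l1, induces proteasome genes when proteasomes are short, through antioxidant response elements. It is extracted from the endoplasmic reticulum by p97 (Vcp), deglycosylated by Ngly1 and cleaved by Ddi2. Of the 10 regulators tested 2 rose and 4 fell, where 31.8% of all genes were higher and 20.3% lower. Nfe2l1 was at 145, 132 and 140.0 CPM in sgControl libraries against 161, 160.5 and 168 in sgNDUFS4 libraries. The groups did not overlap, and it rose by 0.23 (SE 0.0427, limma adjusted p = 6.3e-05). Vcp was at 908, 899.6 and 902 CPM in sgControl libraries against 758, 797 and 756 in sgNDUFS4 libraries, a fall of 0.23 (SE 0.0279, limma adjusted p = 1.6e-07). Ddi2 fell by 0.24 (limma adjusted p = 0.0024) but did not pass once centred by region (-0.055), and Ngly1 was at -0.11 and did not pass. Nfe2l2, which encodes the related factor NRF2, fell by 0.11 (limma adjusted p = 0.032), and did not pass without sgControl replicate 1 (-0.11), sgControl replicate 3 (-0.097) or sgNDUFS4 replicate 3 (-0.071). Its inhibitor Keap1 fell by 0.30 (limma adjusted p = 1.8e-04). Of their small Maf partners Mafg rose by 0.40 and did not pass after regional centring (0.20), and Maff and Mafk did not pass. The repressor Bach1 did not pass.

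RefSeq promoter windows on GRCm38.p6 were matched by symbol for 36 of the 43 members, and the 250 bases before the start were searched on both strands. No window was found for Psmb2, Psmc3, Psmd3, Psmd7 and Psmg2, called lower on CPM, or for Psmb1 and Psmb7, which did not pass. All members called higher had a window, so the calls are unevenly covered. The core of the antioxidant response element, TGACNNNGC, occurred in 6 members, or 16.7%, against 11.5% of 27025 genes. The CCAAT box, CCAAT, occurred in 13 members, or 36.1%, against 37.5% of genes. The matches to the response element are shown because they are the sites at which NRF1 and NRF2 could be read in this window. Each is written 5′ to 3′ on the strand of the match with up to 10 bases on either side, the match in capitals.
Psmb6, chr11:70525338-70525356, plus strand: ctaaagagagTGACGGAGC
Psmb5, chr14:54618024-54618052, minus strand: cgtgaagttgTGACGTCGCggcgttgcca
Psmc6, chr14:45329587-45329615, minus strand: gagcaatgccTGACTTAGCtactggctgg
Adrm1, chr2:180171416-180171444, plus strand: cgctcccctaTGACACAGCaacaataggg
Psmd12, chr11:107479278-107479299, minus strand: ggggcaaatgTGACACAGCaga
Psmd9, chr5:123228149-123228177, plus strand: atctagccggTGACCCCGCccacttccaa
Adrm1 and Psmd12 carry the same 9 bases and were called lower on CPM. Psmb6, whose match ends at the base before the RefSeq start, was called higher, and Psmb5, Psmc6 and Psmd9 did not pass. Members with a match thus occurred among the higher, the lower and the uncalled genes.

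The upstream windows of the gene that was called higher in every analysis and of the most abundant ATPase gene that was called lower in every analysis are given for comparison, 250 bases each, on the plus strand, with matches to either motif in capitals.
Psmb6, chr11:70525107-70525356: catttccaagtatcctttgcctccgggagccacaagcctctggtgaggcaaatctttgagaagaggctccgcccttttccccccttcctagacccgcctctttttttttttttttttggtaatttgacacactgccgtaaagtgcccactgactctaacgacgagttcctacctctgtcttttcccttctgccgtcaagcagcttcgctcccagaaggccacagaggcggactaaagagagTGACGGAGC
Psmc1, chr12:100109952-100110201: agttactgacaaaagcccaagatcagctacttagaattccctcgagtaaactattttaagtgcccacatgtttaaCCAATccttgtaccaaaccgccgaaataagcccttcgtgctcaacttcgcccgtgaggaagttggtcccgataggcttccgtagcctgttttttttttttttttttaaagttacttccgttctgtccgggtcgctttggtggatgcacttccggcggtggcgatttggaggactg
The Psmb6 window holds 1 response element core and 0 CCAAT boxes, and the Psmc1 window 0 and 1. A match is a description of the letters and not evidence of binding.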

How the data were processed

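The deposited table holds CPM values that the authors scaled to the reads counted in genes in each library, for 22535 gene rows and 6 libraries. Alignment with HISAT2 to GRCm38 is named in the submitters' processing notes. The counting tool is not given in the sources used here, nor is the annotation. Of the deposited columns the authors' own fold change and p-value columns were not used. Dividing each library's CPM by the step of 1 read gave a whole number, within 0.01, for 99.98% to 100.0% of values, and these numbers were taken as reads. On these reads edgeR called 5583 genes. The main test was limma 3.58.1 in R 4.3.3 on log2(CPM + 0.5), two-sided, allowing the variance to follow the mean, after genes averaging under 1 CPM were dropped, with Benjamini-Hochberg adjustment over 11063 genes and a threshold of 0.05. Log2 fold changes on this scale understate the change of low genes. Alternatives were other pseudocounts, filters, scalings and variance models, a block on the replicate number, leaving out each library, edgeR 4.0.16 and DESeq2 1.42.0 on the reads, and regional centring. Scripts were tested on simulated data. Positions and lengths came from GENCODE M21 (GRCm38). Members and lists were chosen with earlier results of these data known. All members could be named, with all regulators and, for other lists, up to 3 called genes of smallest p and 1 uncalled gene of highest level. No pair of replicates was close enough to be 1 library counted again, as their chi-square per gene was 3.53 to 5.29. A few genes of the lists are not reported here.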

Additional observations from a re-analysis of the deposited data

How the results depend on the processing

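The number of members called higher was 9, and was 4 with TMM scaling, 4 with edgeR, 4 with DESeq2 and 1 with regional centring. The number called lower was 17, and was 22 with each of the first 3 and 26 with regional centring. The members' median log2 fold change of -0.042 became -0.10 with TMM scaling, edgeR and DESeq2 and -0.14 with regional centring. With a library left out, 7 to 11 members were higher, 13 to 16 were lower, and the median ranged from -0.065 to -0.031, with -0.065 without sgControl replicate 1. Over all genes 5755 were called, 5058 to 5581 when 1 library was dropped and 5941 with the block. Of all calls 61.1% were higher, and 49.2% with TMM scaling, which moved the median of all genes from 0.061 to 0.0036. The other pseudocounts, filters, quantile normalization and variance model kept both member counts within 1.5 times.

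Some log2 fold changes changed sign. With regional centring this held for Psma5 at -0.17, Psmb1 at -0.17, Psmb4 at -0.13, Psmb5 at -0.072, Psmb7 at -0.033, Psmc5 at -0.023, Psmd4 at -0.099, Psmd6 at -0.077, Psmd10 at -0.052, Psmd11 at -0.021, Pomp at -0.037, Psmg1 at -0.083, Psme3 at -0.15, Psmb10 at -0.0060, Maff at 0.19, Mafk at 0.0051 and Bach1 at -0.082. With TMM scaling, edgeR and DESeq2 in turn it held for uncalled genes: Psmb1 at -0.0031, -0.0033 and -0.0036, Psmb7 at -0.043, -0.046 and -0.046, Psmd6 at -0.037, -0.034 and -0.034, Psmg1 at -0.043, -0.044 and -0.045, and Bach1 at -0.036, -0.042 and -0.043. With quantile normalization Psma7 was at 0.0087 and Bach1 at -0.032, and with a pseudocount of 0.1 Maff was at 0.0080. With 1 library dropped, uncalled genes that changed sign ranged from -0.038 to 0.014 for Psma7, -0.019 to 0.048 for Psmb7, -0.070 to 0.019 for Psmc6, -0.034 to 0.10 for Psmd6, -0.037 to 0.026 for Psmd13, -0.0066 to 0.036 for Psmg1, -0.45 to 0.31 for Maff, -0.049 to 0.029 for Mafk, -0.050 to 0.059 for Bach1 and -0.031 to 0.012 for AI314180. Apart from the shifts that scaling of libraries and centring by region apply by construction, the cause was not tested.

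With the replicate number of the labels as a replicate block, 9 members were higher and 18 lower, the added call being Psme4. Same-numbered libraries deviated together at correlations of 0.012 to 0.097, too low to take the numbers as pairs, although 5 of 6 libraries correlated best with their own number. Members had 262 reads or more, so depth limits mainly the low assembly genes.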
